A study of Mus musculus with 26 samples.

Results

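The partial depletion of Brg1 by retroviral shRNA was followed in cultured mouse pro-B cells that lack Rag1. A gene was counted as a member of this response set when the larger of its 2 group means reached 50 normalized reads, which 10036 of the 19719 listed genes did. The set comes from 6 of the 26 samples of the series. Its members held 99.3% of the summed control means and 99.2% of the summed Brg1 shRNA means. Mpzl3 lay just outside this minimum at a larger mean of 50.00 after rounding, and Lmln just inside it at 50.04. For 9600 members both means reached 50, and 436 passed through 1 group only.

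Both groups were B220+ bone marrow cells of Rag1-/- mice of the C57/Bl6 strain, grown with IL7 and SCF for 7 days. Control cells (3 libraries) carried a retrovirus with Ctrl-sh and depleted cells (3 libraries) one with Brg1-sh. Virus was added on days 3 and 4, and infected cells were enriched 2 days after infection with hCD25 magnetic beads. The labels give each group a single hairpin name and do not state whether its 3 libraries are from different animals. All p-values below thus describe scatter among libraries, and effects of the hairpin other than on Brg1 cannot be told apart from those of Brg1 loss. A second experiment of the same series shares no library with this one. It removed Brg1 by ER-Cre from floxed alleles in pro-B cells with 0.3 µM tamoxifen for 60 hours. It holds 2 libraries, against 2 with wild-type Brg1 alleles that also carry ER-Cre and received tamoxifen. These cells were also cultured for 7 days, and their sample titles, unlike those of the knockdown, do not name Rag1 loss.

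Brg1 is the ATPase of SWI/SNF complexes, which use ATP to slide or evict nucleosomes and so open promoters and enhancers to transcription factors. Pro-B cells are bone marrow precursors that have committed to the B lineage and proliferate in response to IL7, and they recombine the immunoglobulin heavy chain locus with the Rag1 and Rag2 proteins. Cells without Rag1 cannot carry out this step and stop at the pro-B stage.

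The level used throughout is a mean of reads divided by library size factors, and each group has a single deposited mean, so no standard deviation can be given. The change of a gene is the log2 of (Brg1 shRNA mean + 1) over (control mean + 1), which understates the change of low genes. A gene is called when its adjusted p in the authors' deposited table was under 0.05. Low means could be split into whole reads, which gave depths of about 10509284, 9421325 and 5201372 reads for the control libraries and 11050878, 9837722 and 8304423 for the Brg1 shRNA libraries. These libraries are named by depth, since the means carry no replicate number.

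The cells carried the transcripts of pro-B cells in both groups. In normalized reads per kb of exon, the control and Brg1 shRNA levels were 5368 and 6762 for the signalling chain gene Cd79a and 2564 and 2342 for the surrogate light chain gene Igll1. Markers of other lineages varied in level. The T cell gene Cd3g had group means of 1.14 and 0.779 and the erythroid factor gene Gata1 1.48 in both groups. Other genes of the same marker lists were higher, such as Lck at 273 and 427, Thy1 at 204 and 136, and Tfrc at 4248 and 4036. Rag1 itself still had means of 257 and 148 (p 0.5707 in the authors' deposited table). These reads do not check the genotype, because no source used here says which part of the gene the null allele lacks.

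**Figure D1:**
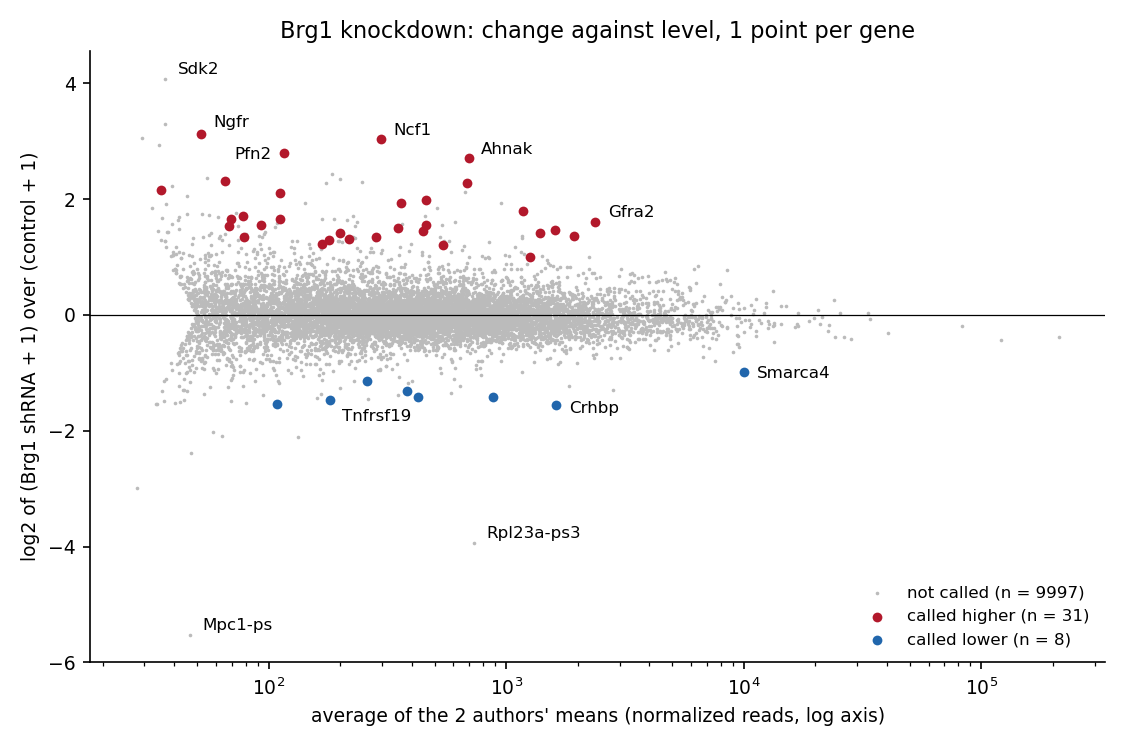
Change on Brg1 knockdown (y axis, log2) against the average of both group means (x axis, normalized reads, log axis) for the 10036 genes of the set. The 31 genes called higher are red and the 8 called lower blue, and the largest changes in both directions include uncalled genes (grey) such as Sdk2, Rpl23a-ps3 and Mpc1-ps.

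Smarca4, which encodes Brg1, was reduced to 50.5% of control. Its authors' means were 13340 in control and 6743 in Brg1 shRNA libraries, a fall of 1.98-fold (adjusted p 0.0472 in the authors' deposited table). The residual level was 1041 normalized reads per kb of exon against 2060 in controls. No other of the 24 SWI/SNF subunit genes in the set was called, and their median change was 0.07, beside -0.02 over all 10036 genes. Smarca2, the gene of the alternative ATPase Brm, had means of 269 and 202. The largest positive change was that of Arid1a, a DNA-binding subunit of BAF complexes, with means of 4507 and 6033 and a log2 change of 0.42. Bcl7a (0.41), Arid2 (0.35) and Arid1b (0.32) lay closest to it. Among core subunits, Smarcd1 (0.24) and Smarcc2 (0.22) lay above Smarcb1 (0.06), Smarcc1 (-0.05) and Smarce1 (-0.01, and just above 0 with equal sums of the group means).

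In all, 31 genes rose (0.309% of those tested) and 8 fell (0.0797%), so that 39 of 10036 genes passed (0.389%). At an unadjusted p under 0.05 in the authors' deposited table there were 277 higher (2.76%) and 183 lower (1.82%). A change past 1.5-fold was seen for 563 genes upwards (5.61%) and 352 downwards (3.51%), most of them uncalled. The genes that rose had a median control mean of 125, and 21 of 31 (67.7%) stood below 200 in controls, compared with 29.8% of the whole set. The median control mean of the 8 genes that fell was 582, with 1 below 200. The control mean is part of the change, so rises tend to low control means and falls to high ones by construction. By the average of both means, the medians were nearer, at 282 for the rises, 404 for the falls and 385 for the set. Of the 39 genes, 10 reached the minimum mean only in the Brg1 shRNA group, all of them rises, so those had to be higher in that group to be counted.

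Promoters of 4 called genes are shown to compare the base composition of rises and falls. They were chosen after their values were seen, 2 from each direction, and are RefSeq windows of 300 bases (build GRCm38.p6, 250 bases before to 50 after the annotated start), for Ngfr at chr11:95587649-95587948, minus strand, Cd55 at chr1:130462695-130462994, minus strand, Crhbp at chr13:95444782-95445081, minus strand and Epha2 at chr4:141300971-141301270, plus strand. Capitals mark matches to any of 12 short motifs searched on both strands, among them GGGCGG (SP1), CAGNTG (E-box), CCCNNGGG (Ebf1), TGACGTCA (CRE) and TATAAA.
Ngfr: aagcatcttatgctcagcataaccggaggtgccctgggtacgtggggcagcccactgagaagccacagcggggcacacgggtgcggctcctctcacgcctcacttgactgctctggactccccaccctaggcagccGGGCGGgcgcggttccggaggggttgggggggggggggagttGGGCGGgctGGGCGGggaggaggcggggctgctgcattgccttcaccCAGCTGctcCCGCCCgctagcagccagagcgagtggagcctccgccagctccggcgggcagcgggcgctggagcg
Cd55: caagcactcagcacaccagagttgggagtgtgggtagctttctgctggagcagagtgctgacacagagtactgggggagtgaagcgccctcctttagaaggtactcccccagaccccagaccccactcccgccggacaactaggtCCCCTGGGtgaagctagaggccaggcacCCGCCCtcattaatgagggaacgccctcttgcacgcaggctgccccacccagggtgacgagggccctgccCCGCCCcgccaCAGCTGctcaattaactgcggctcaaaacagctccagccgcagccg
Crhbp: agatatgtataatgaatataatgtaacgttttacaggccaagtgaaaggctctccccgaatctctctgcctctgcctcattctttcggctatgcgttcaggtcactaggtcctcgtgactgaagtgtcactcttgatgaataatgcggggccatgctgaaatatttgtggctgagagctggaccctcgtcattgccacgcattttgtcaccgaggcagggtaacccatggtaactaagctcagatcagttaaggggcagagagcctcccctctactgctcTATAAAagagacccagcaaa
Epha2: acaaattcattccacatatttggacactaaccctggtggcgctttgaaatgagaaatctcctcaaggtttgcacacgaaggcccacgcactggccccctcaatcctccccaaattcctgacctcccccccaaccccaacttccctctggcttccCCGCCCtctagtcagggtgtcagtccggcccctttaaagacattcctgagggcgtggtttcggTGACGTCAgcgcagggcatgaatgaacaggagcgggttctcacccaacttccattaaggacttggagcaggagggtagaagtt
The windows of Ngfr and Cd55, which rose, had GC contents of 71.7% and 63.3% and 4 and 2 SP1 matches. That of Crhbp, which fell, had a GC content of 48.0% and a TATAAA match 30 bases after the annotated start as its only capitals, and that of Epha2 54.7% with an SP1 match 96 bases and a CRE match 33 bases before the start.

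Of the 31 genes that rose, 21 could be matched to a promoter window, as could 7 of the 8 that fell and 7331 of the whole set. The median GC content was 68.7% for the rises, 54.7% for the falls and 61.3% for the set. GGGCGG was present in 17 windows of the rises (81.0%) and 2 of the falls (28.6%), against 68.3% of the set and 35.7% of all 32851 windows of the table. The 2 falls with GGGCGG were Epha2 and Smarca4. Smarca4 is the target of the hairpin, so its fall was set by the design, and its window (GC content 72.3%) is counted in all shares of the falls here. CCCNNGGG occurred in 8 windows of the rises (38.1%) and in none of the falls, against 17.7% of the set and 13.7% of all windows. The E-box CAGNTG was found in 52.4% and 42.9% of these windows, with 40.8% in the set and 51.4% in the whole table. The ETS motif CCGGAAGT, present in 10.1% of the set, was in no window of either group. TGGGAA, the core of the Ikaros motif, was in 14.3% of both groups and 22.1% of the set. The remaining motifs, GAGGAAGT (PU.1), TGTGGT (Runx), TGANTCA (AP-1), CACGTG (Myc), TGACGTCA, TATAAA and TGTTTAC (Foxo), were each in at most 2 windows of the rises and 1 of the falls. A motif match describes the letters of these windows alone, and 7 windows are too few to rank the motifs among the falls.

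**Figure D2:**
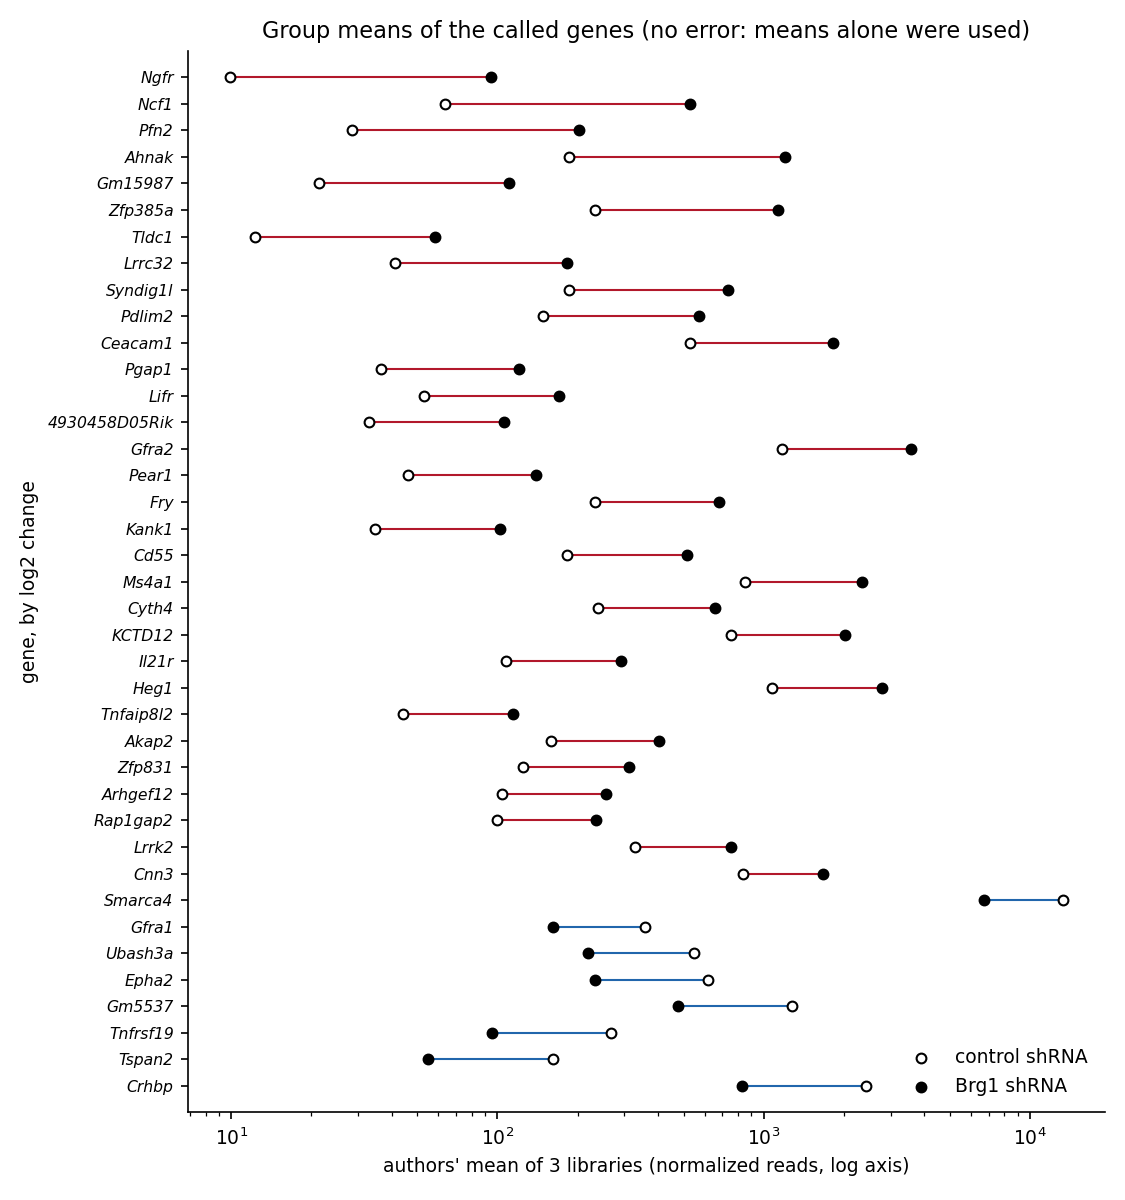
Control (open) and Brg1 shRNA (filled) authors' means of the 39 called genes, in normalized reads on a log axis, ordered by log2 change. Red lines are the 31 rises and blue lines the 8 falls; no error bars can be drawn, since each group has 1 deposited mean.

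Receptor genes were called in both directions. In the list of neurotrophic and TNF receptor genes, 4 of 13 were called, 2 in each direction, while the list median was 0.29. Of all 10036 genes, 0.389% were called. The lists were chosen with earlier results of these data known, so counts of calls in this list and those below only describe it. Ngfr, a neurotrophin receptor of the TNF receptor family (mm10 chromosome 11, 95568818 to 95587735), had authors' means of 9.88 and 94.2, and its adjusted p in the authors' deposited table was 0.0464. Ngfr passed the minimum mean through the Brg1 shRNA group only, so its control mean had to be the lower one. Its recovered control counts were 13, 18 and 1 reads from the deepest to the shallowest library, the last worth 1.71 normalized reads. Counts per Brg1 shRNA library could not be recovered for it. Gfra2, the co-receptor of the growth factor neurturin, was already abundant in controls and rose from 1170 to 3579, 3.06-fold (adjusted p 7.44e-05 in the authors' deposited table). Its paralog Gfra1, the co-receptor for GDNF, fell from 359 to 162 in the same cells (adjusted p 0.0472 in the authors' deposited table). The TNF receptor family member Tnfrsf19 fell from 266 to 95.5 (adjusted p 0.0015 in the authors' deposited table). Paralogous co-receptors and related receptors of this list therefore moved in both directions.

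Cytokine receptors were among the rises. Lifr, which encodes the receptor of leukaemia inhibitory factor, rose 3.16-fold from 53.0 to 170, and Il21r, the receptor of the lymphocyte cytokine IL21, rose 2.65-fold from 108 to 290. Their adjusted p values in the authors' deposited table were 0.0072 and 0.0064. Lrrc32, whose product holds latent TGF-beta at the cell surface, rose 4.33-fold from 41.3 to 182. The IL7 receptor gene Il7r itself had means of 907 and 1022, and the IL7 receptor, Kit and STAT5 list had a median of 0.01 over 19 genes with no call. Within that list Kit, the receptor of SCF, had means of 154 and 67.2, and Socs3, an inhibitor of cytokine signalling, 127 and 325. Both missed the threshold, with adjusted p values of 0.086 and 0.102 in the authors' deposited table.

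Adhesion genes were called in both directions, 1 higher and 2 lower of 23 members, at a median of -0.02. Of all genes, 0.309% were called higher and 0.0797% lower. Ceacam1, an adhesion molecule and inhibitory receptor, rose 3.45-fold from 529 to 1827 (adjusted p 0.002 in the authors' deposited table). Tspan2, a tetraspanin, fell 2.90-fold from 161 to 54.9, and Epha2, an ephrin receptor kinase, fell 2.65-fold from 616 to 232. In the authors' deposited table the adjusted p was 0.0464 for Tspan2 and 0.0148 for Epha2. Outside the list, Heg1, a transmembrane mucin-like receptor, rose 2.59-fold from 1071 to 2774, and Pear1, a receptor with EGF-like repeats, rose 2.96-fold from 46.3 to 139.

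Genes of the actin cytoskeleton supplied 3 of the rises and no fall, out of 36 members with a median of -0.02. Of all genes, 0.309% were called higher, and this list too was chosen with earlier results known. Pfn2, a profilin that binds actin monomers, rose 6.97-fold from 28.3 to 203. Pdlim2, a PDZ and LIM domain protein of actin-associated structures, rose 3.83-fold from 148 to 570. The third was Ahnak, a very large scaffold protein at the cell membrane, at 185 and 1205, a rise of 6.48-fold. The adjusted p values of Pfn2, Pdlim2 and Ahnak in the authors' deposited table were 1.18e-05, 0.001 and 0.0003. Outside the list, Kank1, a regulator of actin at the cell cortex, rose 2.88-fold and Cnn3, calponin 3, rose 2.01-fold. The other list members were not called, with Tagln2, transgelin 2, having means of 2130 and 1377.

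Genes of intracellular signalling were also among the rises. Ncf1, the organizer subunit of the phagocyte NADPH oxidase, had the smallest adjusted p, 5.67e-08 in the authors' deposited table, with means of 63.7 and 531. The other oxidase genes were not called, although Ncf4 (417 and 642) and Cybb (55.9 and 106), the latter encoding the catalytic subunit, lay in the same direction. Small GTPase regulators included Cyth4, an exchange factor for ARF proteins (2.74-fold), Arhgef12, another exchange factor (2.45-fold), and Rap1gap2, which inactivates Rap1 (2.33-fold). The kinase gene Lrrk2 rose 2.30-fold from 328 to 755, the kinase anchor gene Akap2 2.54-fold, and Tnfaip8l2, a negative regulator of immune receptor signalling, 2.55-fold. Further rises were Zfp385a (4.85-fold), Syndig1l (3.94-fold), Tldc1 (4.47-fold), Pgap1 (3.25-fold), Fry (2.92-fold), KCTD12 (2.68-fold) and Zfp831 (2.48-fold). The noncoding genes Gm15987, annotated as antisense, and 4930458D05Rik, a processed transcript, rose 4.95-fold and 3.16-fold.

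Crhbp, which encodes the binding protein of corticotropin-releasing hormone, had the most firmly called fall. Its authors' means were 2423 and 827, and its adjusted p was 2.45e-05 in the authors' deposited table. Ubash3a, of a phosphatase-related family that dampens antigen receptor signalling in T cells, fell 2.50-fold from 548 to 219. It was the only called gene among 6 T cell and innate lymphoid markers, where 0.389% of all genes were called. The summed level of these 6, which includes Ubash3a itself at 548 and 219, was 1397 in control and 1075 in Brg1 shRNA libraries. The fall of this sum was about as large as the fall of Ubash3a alone. The part of T cells in the fall of Ubash3a was not tested. The list's other genes included Lck, at 273 and 427, and Thy1, at 204 and 136. The pseudogene Gm5537 fell 2.68-fold from 1280 to 477, a value made uncertain by any reads it shares with its parent gene.

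Genes of later B cell stages lay on both sides of 0. Among 14 mature B and plasma cell markers 9 lay above 0 and 5 below, and the median was 0.49. Of the 14, 2 were called, beside 0.389% of all genes. Ms4a1, encoding CD20, rose 2.76-fold from 853 to 2351, and Cd55, encoding decay-accelerating factor, rose 2.82-fold from 182 to 517. In the authors' deposited table their adjusted p values were 0.0016 and 0.0043. Uncalled members above 0 included Tnfrsf13b (1058 and 1854), Cr2 (17.9 and 50.5) and Fcrl1 (35.7 and 95.9). Cr2 and Fcrl1 reached the minimum mean in the Brg1 shRNA group only, so they had to lie above 0 to be counted. Both enter the 9 above 0, the median and the summed level. Below 0 were Cxcr5 (754 and 432), Cd69 and the plasma cell genes Xbp1 (1251 and 843), Irf4 (1639 and 1252) and Sdc1 (221 and 172). The summed level of the 14 markers was 7967 in control and 10426 in Brg1 shRNA libraries, and whether more cells carried them or each cell carried more cannot be told apart in bulk RNA. For 25 genes of pre-B receptor and B cell signalling the median was 0.24, with 19 above 0 and no call. The members with the smallest p were Cd79b, which encodes a signal-transducing partner of surface immunoglobulin (6277 and 10793), and Cd38 (289 and 593), with p values of 0.0053 and 0.0282 in the authors' deposited table.

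No B lineage transcription factor was called among 29, and their median was 0.12. Ebf1 had means of 5715 and 5514, Pax5 3223 and 3847, and Ikzf1, which encodes Ikaros, 3875 and 4003. Bcl6, which encodes a transcriptional repressor, had 54.1 and 163, and Spib, a PU.1 relative, 4583 and 8228, with adjusted p values of 1 in the authors' deposited table. For V(D)J recombination the median was -0.08 over 16 genes. Dntt, which adds bases at the joins, had means of 840 and 330 (unadjusted p 0.7179 in the authors' deposited table). The surrogate light chain genes Igll1 (5547 and 5068) and Vpreb1 (4137 and 3345) were not called.

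**Figure D3:**
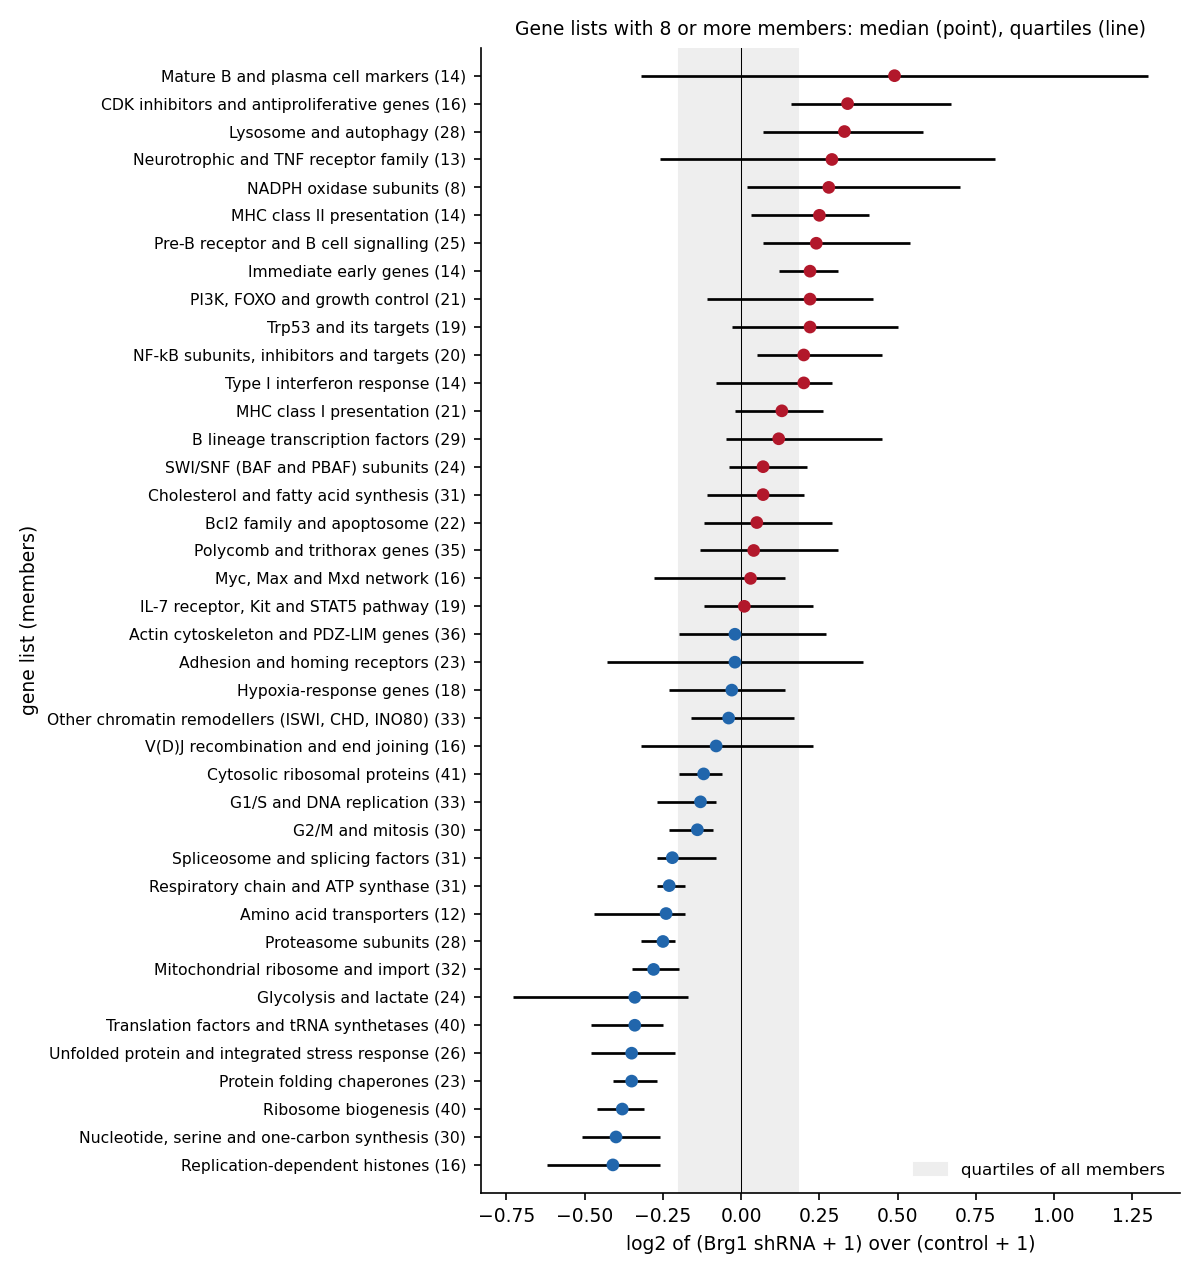
Median (point) and quartiles (line) of the log2 change for each gene list with at least 8 members, with the number of members in brackets. The grey band spans the quartiles of all 10036 genes, -0.20 to 0.18; the ribosome biogenesis, nucleotide synthesis and glycolysis lists have medians below it, and the mature B cell, lysosome and antiproliferative lists above it.

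Several lists of cell growth and biosynthesis had nearly all members below 0, without a called gene. The list of cholesterol and fatty acid synthesis did not, with a median of 0.07 over 31 genes and 18 above 0, among them Scd1, a fatty acid desaturase, at 4542 and 7836. All 40 ribosome biogenesis genes were below 0, with a median of -0.38, where the whole set had 52.8% below 0 and 47.2% above. The same held for 30 of 30 nucleotide, serine and one-carbon synthesis genes (median -0.40), 32 of 32 genes of the mitochondrial ribosome and import (-0.28) and 28 of 28 proteasome genes (-0.25). For translation factors and tRNA synthetases 39 of 40 lay below 0 (-0.34), and for the respiratory chain and ATP synthase 29 of 31 (-0.23). Within ribosome biogenesis the values ran from -0.01 for Bysl to -0.57 for Mybbp1a, a nucleolar protein, with means of 3888 and 2611. Shmt2, the mitochondrial serine hydroxymethyltransferase, had means of 3445 and 2065, and the translation initiation factor gene Eif2s1 1661 and 946. Single genes of these lists thus differed by under 2-fold, and 1 of 40 ribosome biogenesis genes reached an unadjusted p under 0.05.

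Glycolysis held larger single changes than those lists. Of its 24 members, 20 lay below 0 at a median of -0.34, and 9 members, all below 0, had an unadjusted p under 0.05 in the authors' deposited table, though none passed after adjustment. Pgam1, phosphoglycerate mutase, had means of 1053 and 513 (adjusted p 0.086 in the authors' deposited table). Ldha, lactate dehydrogenase, had 9643 and 5562, Eno1, enolase, 8436 and 5102, and Pfkp, a phosphofructokinase, 959 and 528. The widest change of the list was -1.48 for the lactate exporter gene Slc16a3. The hypoxia-response list had a median of -0.03 over 18 genes.

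Further lists below 0 were those of protein folding chaperones (median -0.35, 20 of 23), the unfolded protein and integrated stress response (-0.35, 22 of 26), replication-dependent histones (-0.41, 15 of 16) and splicing (-0.22, 29 of 31). Of 24 listed histone genes, 16 reached the minimum mean. Their median level was low in these libraries of polyadenylated RNA, at 94.7 against 385 for the set. Cell cycle lists were nearer to 0, at -0.13 for 33 G1/S and DNA replication genes and -0.14 for 30 G2/M genes. Cytosolic ribosomal proteins stood at -0.12 with 36 of 41 below 0. Myc, a driver of growth genes, had means of 1743 and 1242 (p 0.0553 in the authors' deposited table). Its list, with the partners Max and Mxd, had a median of 0.03.

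Several lists lay above 0, again without a call. CDK inhibitors and antiproliferative genes had a median of 0.34, with 13 of 16 above 0, among them Btg1 (1621 and 2823) and the p21 gene Cdkn1a (810 and 1409). Lysosome and autophagy genes had a median of 0.33 with 22 of 28 above 0, from Gusb at -0.32 to Ctsh, a cathepsin, at 2.29. The means of Ctsh were 82.9 and 410, yet its p was 0.0659 in the authors' deposited table. PI3K, FOXO and growth control genes had a median of 0.22, in which Pik3ip1, an inhibitor of PI3K, had means of 232 and 476 (adjusted p 0.1846 in the authors' deposited table). The medians of MHC class II presentation (0.25), NF-kB (0.20) and type I interferon genes (0.20) were also above 0.

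The change varied with level and gene length. The median log2 went down over bins of average level, from 0.03 for 1146 genes between 50 and 100 to -0.14 for 50 genes at 10000 or more. The spread narrowed over the same bins, from an SD of 0.50 to 0.23. A further 206 genes had an average under 50, and since these passed the minimum through 1 group only, their median of 0.18 and SD of 1.05 are shaped by that rule. Called genes were found at every level below 5000, and Smarca4 alone was called at 10000 or more. By exon length, the median was -0.09 in the shortest of 3 equal groups of genes, -0.02 in the middle and 0.05 in the longest. The deletion table showed the same order, -0.09, -0.01 and 0.04. The lists below 0 include short genes, with a median exon length of 2142 bases for the respiratory chain and 2136 for the proteasome. Ribosome biogenesis (3575) and nucleotide synthesis (3994), at lower medians, were close to the 3801 of the set. The part of length and level in these list medians was not tested.

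**Figure D4:**
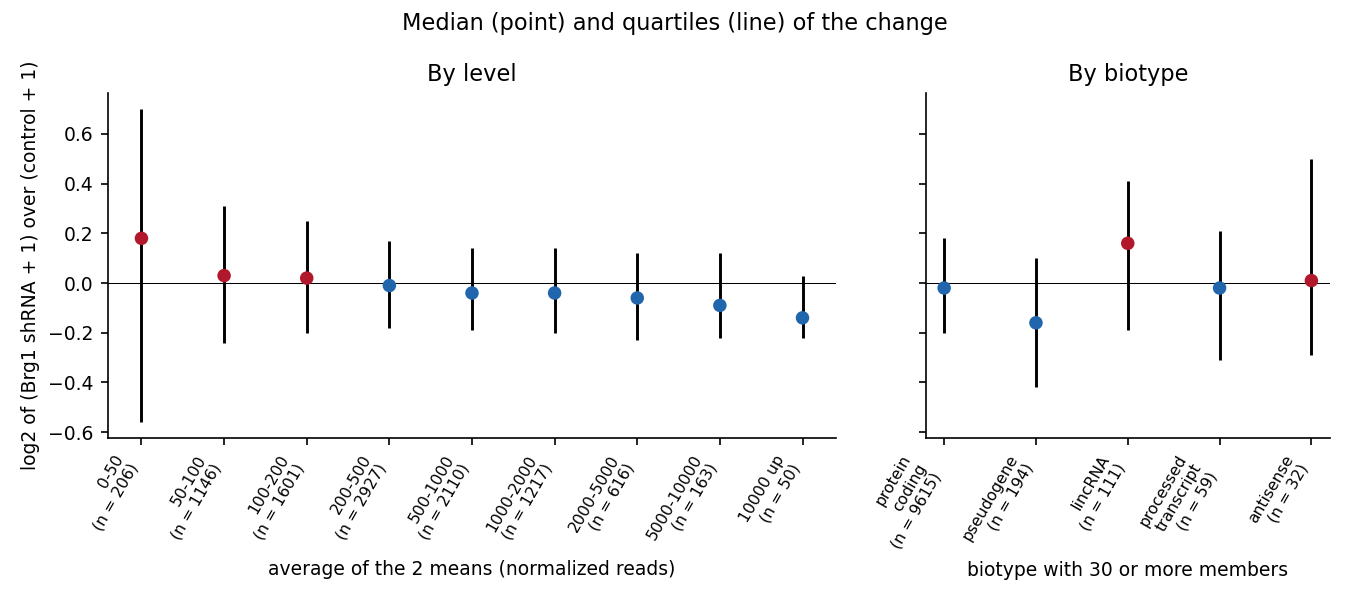
Median (point) and quartiles (line) of the log2 change in bins of the average level (left) and for biotypes with at least 30 genes (right), with the number of genes below each. From 50 upwards the medians run from 0.03 to -0.14 with level, and the bin under 50 holds only genes that passed through 1 group. By biotype they run from -0.16 for pseudogenes to 0.16 for lincRNA genes.

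Medians varied with biotype. Protein-coding genes (9615) had a median of -0.02 and supplied 29 of the rises and 7 of the falls. For lincRNA genes, long transcripts between genes, the median was 0.16 over 111 genes with 71 above 0, and no gene was called. Their quartiles, -0.19 and 0.41, overlap those of coding genes, -0.20 and 0.18. The lincRNA with the largest change, Gm15675, had means of 32.7 and 113 (adjusted p 0.1879 in the authors' deposited table). Antisense (0.01, 32 genes) and processed transcripts (-0.02, 59 genes) centred near 0.

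Pseudogenes had a median of -0.16 over 194 genes, and 133 lay below 0. Some of the largest negative changes of the whole set were theirs. Mpc1-ps had means of 92.3 and 1.04, Gm5913 50.1 and 5.45, and Gm10171 79.5 and 14.4. None passed, at unadjusted p values of 0.1305, 0.4704 and 0.2552 in the authors' deposited table, so these differences did not exceed the spread that the authors' test saw between libraries. Rpl23a-ps3, listed as protein coding though named for a ribosomal pseudogene, had means of 1372 and 88.9 (p 0.2551 in the authors' deposited table). In the 33 ribosomal protein pseudogenes the median was -0.12, and in the other 161 it was -0.18. Reads that fit a pseudogene and its parent can be divided between them, which leaves all of these values uncertain.

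The largest changes among uncalled rises were those of Sdk2, Ryr2 and Pvrl1, which passed the minimum through the Brg1 shRNA group only and so had to be lower in controls. Sdk2, a neuronal adhesion gene, had means of 3.23 and 70.3, and its control libraries held 7, 4 and 0 reads from deepest to shallowest. A count of 0 in the shallowest control library allows a level of up to 5.12 normalized reads (3 reads). Ryr2, a calcium release channel of heart muscle, had means of 5.97 and 67.0, with control values of 10.1, 0.942 and 6.83. Pvrl1, a nectin adhesion gene, had 5.52 and 53.1, with control values of 10.1, 4.71 and 1.71. Mfhas1, also uncalled, was above the minimum in both groups at 56.9 and 313. Genes called below the minimum mean were March1 (12.3 and 49.5), Nckap1 (7.00 and 47.8), Adamtsl2 (2.74 and 23.7) and Cd276 (0.877 and 28.7), all higher.

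The knockdown changes were then set beside those of Brg1 deletion, whose libraries are separate. Of the 39 called genes, 39 had the same sign on deletion, where 81.6% of 9930 genes above the minimum in both tables did. Smarca4 is among the 39 and was the target of both experiments, so its sign was fixed in advance. The share of equal sign also depended on the size of the deletion change. It was 74.4% for 6452 genes with a deletion log2 from -0.5 to 0.5, and 93.3% to 98.3% in the bins beyond. In the deletion the 31 rises had a median log2 of 1.82, against 1.56 in the knockdown, and the 8 falls had -1.61 against -1.41. Of the 39, 8 were called in the deletion as well, where 2.61% of genes were called: Pfn2, Tldc1, Pdlim2, Gfra2 and Pear1 among the rises and Crhbp, Gm5537 and Smarca4 among the falls. Over the 9930 genes the changes of the 2 experiments had a Pearson r of 0.76 and a Spearman rank correlation of 0.79. Genes are not independent replicates, and the tables were normalized separately.

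**Figure D5:**
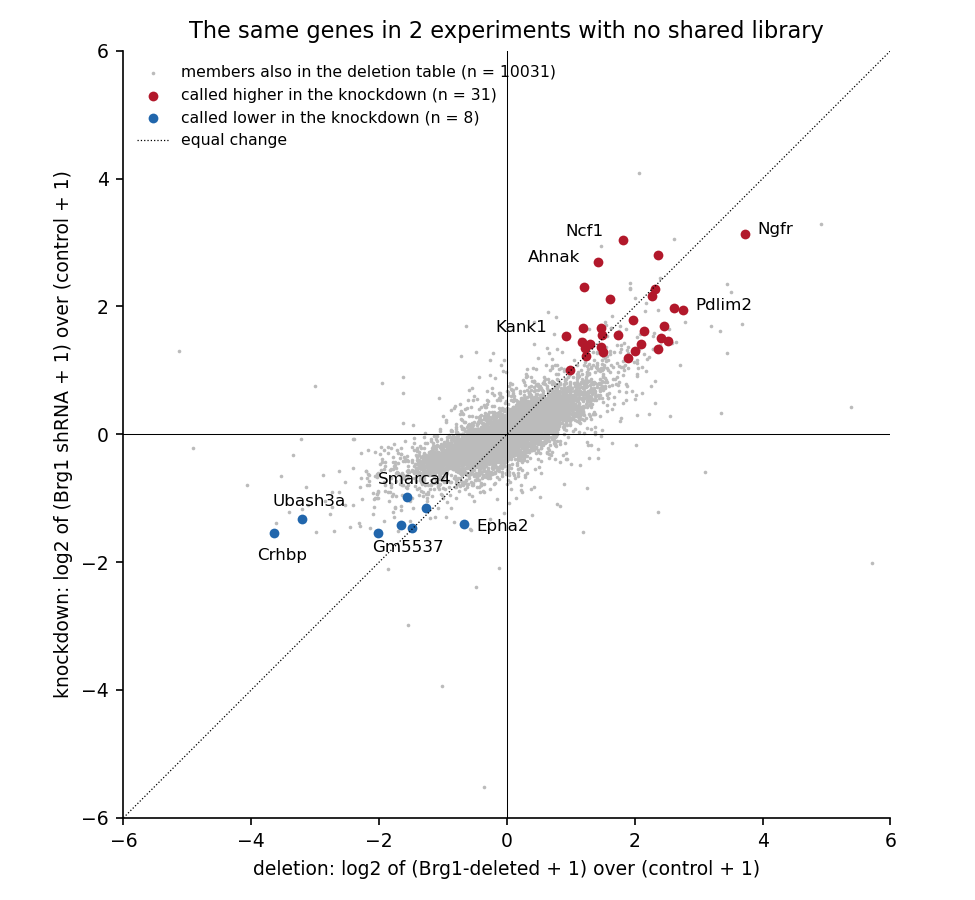
Log2 change on knockdown (y axis) against that on deletion (x axis) for 10031 genes of the set that the deletion table also lists, with the 39 called genes in colour. All 39 lie in the quadrants of equal sign, and 14 of them lie farther from 0 in the knockdown than in the deletion.

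The size of the response differed from gene to gene between the experiments. Changes were larger on deletion for 25 of the 39, such as Crhbp (log2 -3.64 against -1.55), Ubash3a (-3.21 against -1.32) and Ms4a1 (2.52 against 1.46). Smarca4 itself had -1.56 on deletion and -0.98 on knockdown. The other 14 were larger on knockdown, such as Ncf1 (3.04 against 1.82), Ahnak (2.70 against 1.43), Gm15987 (2.31 against 1.20) and Epha2 (-1.41 against -0.67). Controls of these genes differed between the tables, with Ncf1 at 362 and Ahnak at 1338 in the deletion controls. Rag1 stood at 2566 in the deletion controls and 257 in the knockdown controls. The Rag1 loss named for the knockdown cells alone cannot be told apart from the way Brg1 was lost. The differences between experiments were not tested, since no table holds values per sample. The growth lists were farther below 0 on deletion, at -1.16 for ribosome biogenesis and -0.86 for glycolysis. Among single genes, Myc had -1.90 on deletion against -0.49 on knockdown.

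Markers of other blood cells were present at differing levels in both groups. The 20 listed macrophage and monocyte markers had a summed level of 1248 in control and 1509 in Brg1 shRNA libraries, most of it from Ctsd (728 and 951), a lysosomal protease gene, and Lyz2 (182 and 222), the lysozyme gene. The summed level of 17 neutrophil and granule markers was 413 and 379, with Gfi1 at 156 and 143 and S100a8 at 60.3 and 34.8. Erythroid and megakaryocyte markers summed to 5533 and 6274 over 13 genes, nearly all from the transferrin receptor gene Tfrc (4248 and 4036) and the carbonic anhydrase gene Car2 (1220 and 2157). None of these 3 lists held a called gene, and no mast cell marker reached the minimum mean. The part of other cells in the called genes was not tested.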

How the data were processed

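Polyadenylated RNA was made into strand-marked libraries (dUTP), per the labels' protocols. CASAVA, RSEM, DESeq and the mm10 build are named in the submitters' processing notes, with no versions. The mean columns hold a signal, the mean per group of reads divided by size factors by the authors, per the file headers and the values. Log2 fold change, linear fold (ratio), p-value and false discovery rate were taken as deposited.

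The members and the 49 gene lists were chosen with earlier results of these data known. Since the tables hold means alone, calls are the authors' adjusted p under 0.05, and no model was refitted. A pseudocount of 1 was used. Named genes were the target, every called gene, the 10 largest changes in each direction, up to 4 genes per list by p, every SWI/SNF subunit, up to 3 genes per noncoding biotype, the 5 highest genes and the pro-B genes. Genes named for another reason were chosen after their values were seen. Means below 20 were split into whole reads within 6e-5, an addition made after seeing the data and tested on simulated data. Gene identifiers of 9955 members were found in the reference name table, and promoters were matched by symbol and position. Python 3.11.15, numpy 2.4.6, pandas 2.3.3 and matplotlib 3.10.9 were used.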

Additional observations from a re-analysis of the deposited data

How the results depend on the processing

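The calls are the authors' own, so other settings change which genes are counted and not the test. The count of rises stayed between 21 and 37 (31 as reported) and that of falls between 7 and 10 (8 as reported), except for 5 falls once genes that the authors mark as confounded, a mark no source used here defines, were left out. Genes past 1.5-fold numbered 996 higher and 672 lower with a larger mean of at least 10, 301 and 163 with at least 200, and 302 and 220 without the confounded genes, against 563 and 352. In these 3 settings the number of genes counted differs by construction. The share of higher genes among them was 61.5%, and 70.5% with equal sums of the group means. The median log2 of all genes ranged from -0.03 to 0.02. No list median changed sign under another pseudocount or scaling except 4 within 0.04 of 0. Of 295 genes of the set named by rule, 4 changed sign with equal sums (Bcl11a, Igf2r, RP24-390G17.1 and Smarce1, all uncalled and within 0.04 of 0), and no called gene did. Requiring both means to reach 50, chosen after seeing the data, left 21 rises and 8 falls. All 29 of 29 called genes, the target Smarca4 included, had the same sign on deletion. Whether a call rests on 1 library could not be tested. No paired analysis was possible because the columns hold group means that carry no replicate number, and leaving out each replicate in turn was not run for the same reason.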

Other observations

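Genes near the called genes centred close to 0. Within 100 kb of 24 rises lay 68 other members, with a median log2 of 0.03, of which 4 were past 1.5-fold higher and 2 lower. Over the whole set, 5.61% of genes were past 1.5-fold higher and 3.51% lower, so these counts do not set the neighbours apart. The 4 higher neighbours, like the lower ones, were named after their values were seen. They were Gm15675, 1836 bases from Cd55 on the same strand (means 32.7 and 113), Clec2i near Gm15987 (90.3 and 286), Gatsl2 near Ncf1 (92.5 and 175) and Il4ra, the IL4 receptor chain gene next to Il21r (196 and 312). None of the 4 was called. Near 5 of the falls lay 17 members, of which 1 was past 1.5-fold lower. This was Tmprss3, 8898 bases from Ubash3a, with means of 711 and 352 (p 0.0475 in the authors' deposited table).

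Read from the side of the deletion, 125 genes were called higher there and 125 lower among the 9930 shared genes. On knockdown, 123 of the first and 124 of the second, the target Smarca4 included, had the same sign. The median log2 changes on knockdown were 0.78 and -0.57, against 1.52 and -1.57 on deletion. Of these 250 genes, 246 had the larger change on deletion, and being called there favours large deletion values. Gm15459 was the widest exception, with a log2 of 5.71 on deletion and -2.02 on knockdown, where its p was 0.2299 in the authors' deposited table.

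The 2 genes of highest level were Gm26924, annotated as lincRNA, with 2.70% of the summed control means and 2.14% of the summed Brg1 shRNA means, and Lars2, with 1.57% and 1.20%. Neither was called.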
